A study of Homo sapiens with 6 samples.

Results

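The zinc finger genes of chromosome 19 are the protein-coding genes of that chromosome whose symbol is ZNF followed by digits, with or without a final letter. Of 58233 identifiers in the deposited counts, 246 met this definition, and 193 of them passed the filter on low counts among 13028 genes in all. Messenger RNA was sequenced from OCI-AML2, an established human acute myeloid leukemia line. The series compared 3 libraries labelled IKZF1-ko, from cells edited with CRISPR to lose IKZF1, with 3 libraries labelled NT control, from cells that carried a non-targeting control. IKZF1 encodes Ikaros, a transcription factor of blood cells that itself binds DNA through zinc fingers, and the comparison asked which genes go with its loss. The series text speaks of separate lines in each group and the extraction protocol of triplicates of parental and knockout cells. No source used here says whether the replicates were clones, pools or repeated cultures, and the p-values below rest on a spread among libraries that may be technical only.

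Most of these genes encode proteins with an array of C2H2 fingers, each of which can read a few bases of DNA, and many carry a KRAB domain at the other end. The KRAB domain binds TRIM28, a scaffold that brings the histone methyltransferase SETDB1 and HP1 proteins to the bound site and silences it. Many targets are transposable elements, and the genes sit in clusters on chromosome 19 that grew by repeated duplication. In the coding sequences of 245 members, a KRAB A box was found in 202 and not found in 43, and the number of fingers ranged from 0 to 39 with a median of 13. The box was searched for as a near-exact pattern in the longest complete coding sequence of each gene. A more divergent box, or one in another transcript, would be missed, so the 43 may include genes that have one.

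Total counts ranged from 11300519 to 18214328 per library, and from 11300519 to 14983528 in the NT control libraries. IKZF1 stood at 331, 292 and 334 CPM (counts scaled to the library's total and composition) in NT control replicates 1, 2 and 3. In the IKZF1-ko replicates, in the same order, it stood at 421, 426 and 436 CPM. Its RNA was thus not lower but higher in each library labelled IKZF1-ko than in each NT control library. Loss of the protein cannot be read from these counts. Myeloid markers CD33, MPO, SPI1, LYZ, CEBPA and PTPRC passed the filter, 6 of 8 on the list, while ANPEP and CD68 had 22 and 9 counts in all libraries together. The summed level of the T cell list was at most 0.109 CPM in any library and that of the erythroid list at most 0.273 CPM, with 3 of 4 genes at 0 counts in each. The epithelial and fibroblast list reached 0.614 CPM, and 1 of 4 B cell genes, PAX5, passed the filter.

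NT control replicate 2 and IKZF1-ko replicate 1 stood apart from the other 4 libraries. They lay at 39.5 and 50.1 on the first principal component, which held 67.6% of the variance, and the other 4 lay between -29.1 and -16.3. No label names this split, so it is described and not tested. The same 2 libraries had the highest summed level of 25 hypoxia-response genes, 6280 and 6936 CPM against 3789 to 4077 CPM in the other 4. That list was chosen with the split already known from these counts, so its level is a description of the split only. The share of mitochondrial counts was 3.16% and 3.66% in these 2 and 3.63% to 4.21% in the other 4. The part of low oxygen, or of any other difference between cultures, in the values below was not tested.

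The upstream sequences of 5 members that are named in the results are printed here as a description, and no level was tested against them. ZNF160 and ZNF584 are, among members with a mean of at least 5 CPM that were high or low in both libraries that stood apart, those with the largest differences up and down from the rest, ZNF419 is the member called most often across the fits, and ZNF100 and ZNF43 are neighbours of which the first was transcribed and the second had 0 counts. ZNF100 and ZNF43 were chosen after their values were seen. Each sequence is the 250 bases before the most upstream RefSeq start on GRCh38.p14, on the strand of the gene, and capitals mark any match, on either strand, to the searched motifs TGGGAA (the core that Ikaros is known to bind), ACGTG (the core of the hypoxia response element) or CCGGAAGT (the kind of sequence that ETS factors bind). Each gene's table entry was used, which may differ from the outermost start of the GENCODE gene model. The stretches lie at chr19:53103423-53103672 (minus strand) for ZNF160, chr19:58408399-58408648 (plus) for ZNF584, chr19:57487500-57487749 (plus) for ZNF419, chr19:21767580-21767829 (minus) for ZNF100 and chr19:21836183-21836432 (minus) for ZNF43.
ZNF160: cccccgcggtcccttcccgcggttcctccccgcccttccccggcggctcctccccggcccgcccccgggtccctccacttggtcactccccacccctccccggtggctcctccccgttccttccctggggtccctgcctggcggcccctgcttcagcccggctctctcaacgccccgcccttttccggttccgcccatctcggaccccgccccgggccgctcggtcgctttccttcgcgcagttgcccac
ZNF584: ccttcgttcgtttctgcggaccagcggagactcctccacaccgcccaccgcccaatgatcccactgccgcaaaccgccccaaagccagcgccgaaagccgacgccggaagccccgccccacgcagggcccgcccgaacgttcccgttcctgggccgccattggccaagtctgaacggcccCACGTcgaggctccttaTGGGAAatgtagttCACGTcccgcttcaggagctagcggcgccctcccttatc
ZNF419: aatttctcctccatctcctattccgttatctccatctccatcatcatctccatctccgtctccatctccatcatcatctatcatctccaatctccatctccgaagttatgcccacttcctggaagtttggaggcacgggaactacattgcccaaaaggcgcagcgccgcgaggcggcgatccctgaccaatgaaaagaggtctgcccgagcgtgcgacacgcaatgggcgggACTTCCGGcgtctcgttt
ZNF100: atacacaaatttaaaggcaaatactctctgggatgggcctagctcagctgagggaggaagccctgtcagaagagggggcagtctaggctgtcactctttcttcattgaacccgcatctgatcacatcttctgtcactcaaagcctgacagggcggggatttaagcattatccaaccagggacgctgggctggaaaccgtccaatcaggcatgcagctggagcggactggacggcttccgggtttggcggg
ZNF43: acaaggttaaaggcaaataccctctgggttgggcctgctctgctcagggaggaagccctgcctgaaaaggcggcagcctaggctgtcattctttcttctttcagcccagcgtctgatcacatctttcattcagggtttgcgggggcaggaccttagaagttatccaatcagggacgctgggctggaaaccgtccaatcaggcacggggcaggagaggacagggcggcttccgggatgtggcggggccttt

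The ZNF160 stretch was 75.6% G and C with 26 CpG dinucleotides and held none of the motifs, whereas that of ZNF584 was 66.4% G and C with 27 CpG and held TGGGAA as well as ACGTG. ZNF419 held CCGGAAGT near its start. ZNF100 and ZNF43 held none of the motifs and had 8 and 9 CpG. Of the 239 different 12-base pieces of the ZNF43 stretch, 34 (14.2%) also occurred in that of ZNF100, and of the 238 pieces of ZNF160 none occurred in that of ZNF584.

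Of the 246 genes, 35 (14.2%) had 0 counts in all 6 libraries. Together the libraries held 88199849 counts, so 0 counts allow a level of up to 0.0340 CPM, at 3 counts over all libraries and for counting error only. The share with 0 counts was 25.9% among 1220 other protein-coding genes of chromosome 19 and 14.1% among 262 ZNF genes of other chromosomes. Within the chromosome the zeros were uneven. In the cluster from ZNF101 to ZNF254, at chr19:19668796-24129961, 20 of 37 members (54.1%) had 0 counts, against 15 of 209 (7.18%) elsewhere.

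The 35 genes fell into 15 stretches of neighbouring members, of which 9 held a single gene between members with counts, and 6 held 2 or more, 26 genes in all. The longest stretch held 11 members in a row, ZNF43, ZNF208, ZNF257, ZNF676, ZNF729, ZNF98, ZNF492, ZNF99, ZNF723, ZNF728 and ZNF730, at chr19:21804949-23147219. The annotation places 67 genes of any type there, of which 1 had counts, 2 in all. The flanking members had counts, 3084 in ZNF100 and 81 in ZNF724, of which ZNF724 shares 55.4% of its 50-base exon pieces with other genes and is uncertain. A second stretch, ZNF682, ZNF90, ZNF486, ZNF737 and ZNF626 at chr19:19997058-20661596, held 35 genes of any type and 2 counts, and lay between ZNF93 with 1096 counts and ZNF66 with 117. ZNF91, known for silencing SVA retrotransposons, also had 0 counts, while its relative ZNF93, known for silencing LINE-1 elements, stood at 10.2 to 14.3 CPM in the 6 libraries.

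Outside that cluster the longest stretch at 0 was ZNF418, ZNF256, ZNF606 and ZNF135, between ZNF417 with 820 counts and ZNF329 with 582. The single genes were ZNF358, ZNF560, ZNF506, ZNF91, ZNF112, ZNF229, ZNF677, ZNF835 and ZNF132. In the span of ZNF681 and ZNF726, neighbours at 0, the annotation holds another gene that had 2501 counts. A KRAB A box was found in 30 of the 35. Near-identical copies can lose counts to each other, so the share of 50-base exon pieces that occur in another gene was measured. Each member's longest transcript was compared with genes that carry zinc finger symbols or clone-based names, and not with all annotated genes. The median share was 3.94% in the members at 0, against 1.14% in the tested members. In the members at 0 it ranged from 0% to 58.1%, and 2 of the 35 reached 20%, against 14 of the 193 tested. Of the 35, 10 share exon positions with another gene on the same strand and 16 on either strand, and the part of the counting rule in their zeros was not tested. A further 18 members had at least 1 count but did not pass the filter. Their share of 50-base pieces found in another gene ranged from 0% to 97.8%, at 54.1% or above in some and at most 11.3% in the others. The part of copies in their low counts was not tested.

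**Figure D1:**
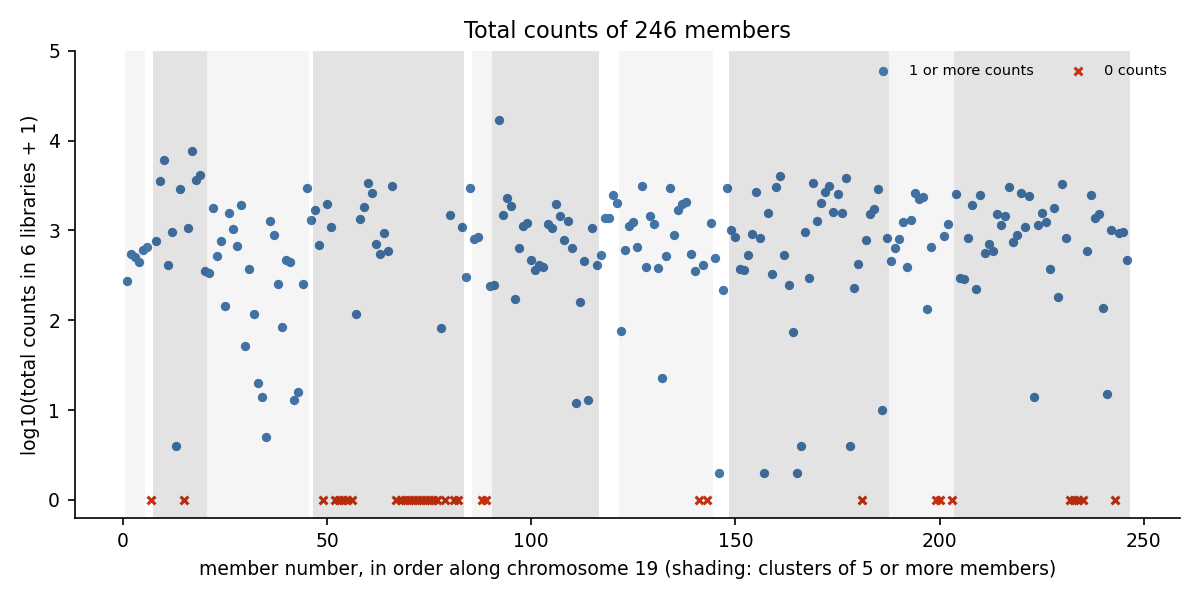
Total counts over the 6 libraries, as log10 of counts plus 1, for the 246 members in order along chromosome 19. Shading marks clusters of 5 or more members and crosses mark the 35 members with 0 counts, of which 20 lie in the cluster of 37 members from ZNF101 to ZNF254.

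Members that were transcribed had low to moderate levels. On a length-scaled measure (TPM, made from counts and annotated exon length), the 193 tested members had a median mean level of 7.68 TPM, against 31.8 TPM in 666 tested other protein-coding genes of chromosome 19 and 12.7 TPM in 205 ZNF genes elsewhere. Members named by level were ZNF146 at 172 ± 5.30 TPM, ZNF581 at 62.1 ± 12.9, ZNF317 at 50.4 ± 4.96, ZNF121 at 44.2 ± 8.27, ZNF480 at 34.9 ± 9.01 and ZNF45 at 29.9 ± 6.64 (SD, n = 6). No KRAB A box was found in ZNF146, ZNF581 or ZNF121, the first of which encodes a protein made almost wholly of fingers. ZNF146 was steady, at 187, 191 and 190 CPM in NT control replicates 1, 2 and 3 and 199, 194 and 197 CPM in IKZF1-ko replicates 1, 2 and 3. Its 2 groups did not overlap, but its log2 fold change of 0.05 was close to its standard error of 0.045.

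With group as the single term, for the libraries labelled IKZF1-ko against those of NT control, edgeR's quasi-likelihood test called 0 of 193 members and 0 of 13028 genes at an adjusted p under 0.05, a background of 0%. At an unadjusted p under 0.05 there were 2 members (1.04%) against 456 of all genes (3.50%). DESeq2 and limma-voom also called 0 members. The median log2 fold change of the members was 0.07 (0.02 without IKZF1-ko replicate 1 and 0.16 without NT control replicate 2), that of other chromosome 19 genes -0.003 and that of ZNF genes elsewhere 0.06. Within groups, the mean level of the members varied with a pooled SD of 0.121 on the log2 scale, and with 0.0193 once the split between libraries was taken into account.

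When edgeR was given a second term, for the library set (the 2 libraries that stood apart against the other 4), 5 members rose and 0 fell. The rising share was 2.59%, against a background of 6.93% of all genes rising and 6.62% falling. Other chromosome 19 genes had 64 rising (9.61%) and 59 falling (8.86%), and ZNF genes elsewhere 16 rising (7.80%) and 0 falling. The members' counts were lower than those of the other genes, with a median of 10.8 against 37.4 CPM in other chromosome 19 genes, and the median standard error of their log2 fold change was 0.12 against 0.08 over all genes. Of the hypoxia-response list, 22 of 25 genes passed the filter, and 10 rose and 0 fell. These p-values take the library sets as known, although the sets were defined from the same counts. The count changed when single libraries were left out, and so did the share of all genes called, which was 13.5% with all libraries. Without NT control replicate 1, edgeR called 0 members and 7.06% of all genes, without replicate 2 of that group 8 members and 14.6%, and without replicate 3 of it 6 members and 9.27%. Without IKZF1-ko replicate 1 it called 8 members and 14.7% of all genes, without replicate 2 of that group 3 members and 10.8%, and without replicate 3 of it 1 member and 6.06%. The members' share, 0% to 4.15%, was below that of all genes in each of these fits. Without NT control replicate 2 or IKZF1-ko replicate 1, the term fits the 1 remaining library that stood apart. In those fits the comparison of the groups thus rests on the other 4 libraries, and they are not separate from the fit to these 4 below.

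The 5 members that rose were ZNF419, ZNF14, ZNF225, ZNF136 and ZNF83, and a KRAB A box was found in all but ZNF83. ZNF419 stood at 11.8, 17.0 and 14.3 CPM in NT control replicates 1, 2 and 3 and at 18.9, 19.9 and 18.1 CPM in IKZF1-ko replicates 1, 2 and 3. Its groups did not overlap, and its log2 fold change was 0.41 (SE 0.11, edgeR adjusted p = 0.0214). With 1 surrogate variable in place of the term it was the 1 member that edgeR called (adjusted p = 0.0423), against a background of 4.41% of genes rising and 3.63% falling, 8.04% in all. The gene lies at chr19:57487711-57496097 on the plus strand (GRCh38) and shares exon positions on that strand with AC003005.1, so its counts are uncertain.

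In the 4 libraries without those that stood apart, edgeR called 8 members, of which 7 rose and 1 fell, against a background of 7.64% rising, 7.1% falling and 14.7% in all. These members were named after their values were seen. ZNF419 was among them, with a log2 fold change of 0.55 (SE 0.12, edgeR adjusted p = 0.00205). Its neighbour ZNF773, which shares exon positions with the same AC003005.1, stood at 11.03 and 9.54 CPM in NT control replicates 1 and 3 and at 14.7 and 14.5 CPM in IKZF1-ko replicates 2 and 3 (0.50, SE 0.13, edgeR adjusted p = 0.00858). ZNF114 had the largest of the 8 fold changes at a low level, 0.933 and 1.75 CPM against 2.73 and 3.01 CPM (1.10, SE 0.33, edgeR adjusted p = 0.0230). The others that rose were ZNF230 (0.48), ZNF473 (0.26), ZNF766 (0.25) and ZNF581 (0.28), and ZNF574 fell by 0.29.

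The other 4 that rose with the term had overlapping groups, and NT control replicate 2 lay above at least 1 IKZF1-ko library in each. ZNF14 stood at 5.09, 8.46 and 5.86 CPM in NT control and 12.2, 7.70 and 6.68 CPM in IKZF1-ko (log2 fold change 0.45, SE 0.14, edgeR adjusted p = 0.0370). ZNF225 stood at 7.38, 9.83 and 8.40 CPM against 14.4, 9.88 and 9.40 CPM (0.39, SE 0.12, edgeR adjusted p = 0.0442). IKZF1-ko replicate 1 was the highest library for both genes. ZNF136 stood at 10.7, 14.1 and 12.9 CPM against 19.2, 13.8 and 15.1 CPM (0.35, SE 0.11, edgeR adjusted p = 0.0395), and ZNF83 at 29.6, 45.9 and 28.1 against 58.7, 31.6 and 33.5 CPM (0.24, SE 0.07, edgeR adjusted p = 0.0321). Of these 5, ZNF83 differed the most between the libraries that stood apart and the rest, with a log2 difference of 0.76. It lies outside the rule for named genes and was named after its values were seen, and none of these 4 genes was called in the 4 libraries or with the surrogate variable.

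**Figure D2:**
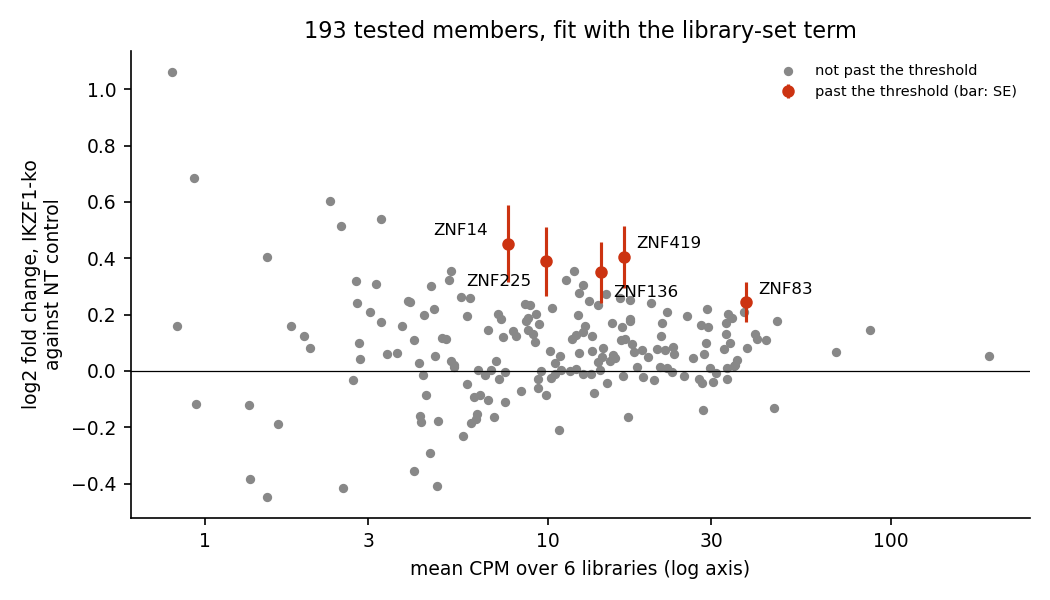
Log2 fold change of IKZF1-ko against NT control from edgeR with the term for library set (vertical axis) against mean CPM over the 6 libraries (log axis) for the 193 tested members. Red points with bars (SE) are the 5 members past the threshold, all above 0, and grey points are the other members, most of which also lie above 0.

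Small positive values were common among the members that were not called. The median log2 fold change with the term was 0.08 (0.06 in the 4 libraries), and 141 of 193 members (73.1%) lay above 0, against 50.6% of all genes, 51.1% of other chromosome 19 genes and 65.4% of ZNF genes elsewhere. The 10th and 90th percentiles were -0.12 and 0.27. The groups did not overlap with IKZF1-ko higher in 11 members (5.70%; background 5.28%) and with IKZF1-ko lower in 1 member, ZNF547 (0.518%; background 4.07%). Each IKZF1-ko library had more counts (15250588 to 18214328) than each NT control library, and the part of depth in these values was not tested.

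Among members with a mean of at least 5 CPM, the ends of the fold changes with the term held genes that did not pass the test. Members under that level reached further, from -0.45 in ZNF582 to 1.06 in ZNF575, and neither passed (edgeR adjusted p = 0.389 and 0.0825). ZNF585A had a log2 fold change of 0.35 (edgeR adjusted p = 0.0592) and ZNF446 one of 0.35 (edgeR adjusted p = 0.148). ZNF446 shares 35.4% of its 50-base exon pieces with other genes and is uncertain. At the low end ZNF296, ZNF324, ZNF546, ZNF235, ZNF525 and ZNF576 had values from -0.23 to -0.16, and the lowest edgeR adjusted p among them was 0.310. Of the members with known targets, ZNF93 stood at 11.3, 10.2 and 11.9 CPM in NT control and 13.2, 12.9 and 14.3 CPM in IKZF1-ko. Its groups did not overlap, and its log2 fold change of 0.28 did not pass the test (edgeR adjusted p = 0.104). ZNF587 and ZNF417, closely related repressors of HERV-K elements, had log2 fold changes of 0.21 (edgeR adjusted p = 0.0919) and -0.03, with 19.9% and 39.6% of their exon pieces shared with other genes. ZNF85, ZNF808, ZNF649, ZNF382, ZNF331 (an imprinted gene) and ZNF266 were not called, with log2 fold changes from -0.18 in ZNF649 to 0.12 in ZNF382.

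Many members differed between the libraries that stood apart and the rest, as did many of all the genes tested. A member was counted as high where both NT control replicate 2 and IKZF1-ko replicate 1 lay above all 4 other libraries, and as low where both lay below them. By this count 85 members (44.0%) were high and 34 (17.6%) low, against 32.5% and 31.5% of all genes. Of the 22 tested hypoxia-response genes, a list chosen with the split already known, 19 were high and 2 low. Other chromosome 19 genes were high in 41.1% and low in 26.0%, and ZNF genes elsewhere high in 28.8% and low in 24.4%. The median log2 difference, taken within each group and averaged, was 0.22 in the members, 0.13 in other chromosome 19 genes, -0.02 in ZNF genes elsewhere and 0.01 in all genes. Without the tested chromosome 19 genes that carry other zinc finger symbols, 41.0% of the remaining 659 were high and 25.9% low. As a mean level relative to the 6 libraries, on the log2 scale, the members stood at -0.13, 0.09 and -0.10 in NT control replicates 1, 2 and 3 and at 0.19, -0.05 and -0.01 in IKZF1-ko replicates 1, 2 and 3. In bulk RNA, fewer cells that express a gene and less RNA per cell cannot be told apart.

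**Figure D3:**
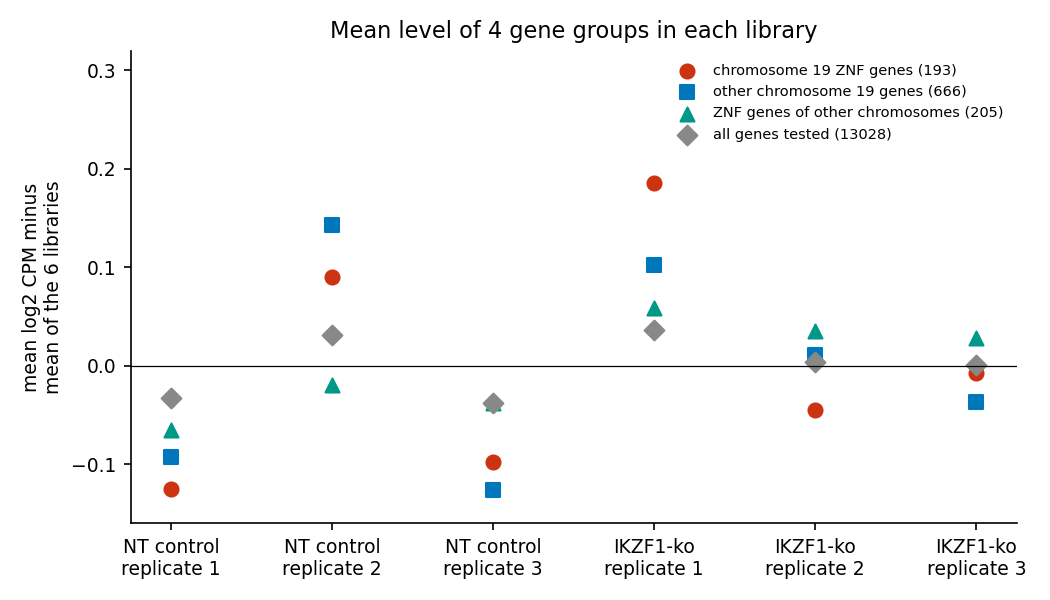
Mean log2 CPM of each gene group minus its mean over the 6 libraries, by library, for the 193 members, 666 other chromosome 19 genes, 205 ZNF genes of other chromosomes and all 13028 tested genes. The members were highest in IKZF1-ko replicate 1 (0.19) and NT control replicate 2 (0.09), as were the other chromosome 19 genes in the reverse order. ZNF genes elsewhere were also highest in IKZF1-ko replicate 1 (0.06), but were at -0.02 in NT control replicate 2.

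ZNF160, reported as a repressor of TLR4, had the largest difference among the members. It stood at 28.3, 66.8 and 28.9 CPM in NT control replicates 1, 2 and 3 and at 79.1, 30.1 and 27.4 CPM in IKZF1-ko replicates 1, 2 and 3. The 2 libraries that stood apart were far above the other 4, by 2.53-fold on average. The gene lies at chr19:53066606-53103436 on the minus strand. ZNF404 stood at 6.02, 11.3 and 3.24 CPM against 12.6, 4.86 and 5.97 CPM, ZNF548 at 20.0, 40.0 and 18.1 against 49.2, 18.6 and 21.3 CPM, and ZNF555 at 5.35, 9.28 and 4.02 against 10.7, 4.37 and 3.96 CPM. In each, the 2 libraries that stood apart were higher than the other 4 without overlap. ZNF224, described as a repressor of the aldolase A gene, stood at 22.3, 48.3 and 24.0 CPM in NT control and 55.4, 24.1 and 25.01 CPM in IKZF1-ko, and ZNF558 at 27.2, 58.8 and 29.2 against 64.7, 31.3 and 30.2 CPM. Their average differences were 2.16-fold and 2.09-fold, and none of these 6 members was called between the groups.

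Other members had lower levels in the same 2 libraries. Abundant members lay on both sides of the split. Of those named by level, ZNF317, ZNF480 and ZNF45 were low, ZNF581 and ZNF121 were high, and ZNF146 was neither. ZNF480 stood at 52.4, 36.04 and 53.5 CPM in NT control replicates 1, 2 and 3 and at 27.2, 53.3 and 51.0 CPM in IKZF1-ko replicates 1, 2 and 3. ZNF45 stood at 38.4, 26.1 and 40.6 against 26.3, 42.8 and 38.9 CPM. ZNF584 stood at 14.8, 6.96 and 13.2 against 7.68, 13.2 and 13.9 CPM, 1.86-fold lower on average in the 2 libraries. For each of these genes the other 4 libraries lay close together and above both. ZNF583 stood at 9.76, 5.19 and 8.49 against 4.54, 9.50 and 7.69 CPM, ZNF790 at 5.60, 4.03 and 6.12 against 3.07, 6.12 and 6.98 CPM, and ZNF530 at 12.05, 6.89 and 12.2 against 8.02, 9.88 and 12.4 CPM. The rule for naming members by this difference left out those with a mean under 5 CPM. Among them ZNF66, with 117 counts in all, had a log2 difference of -1.14.

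**Figure D4:**
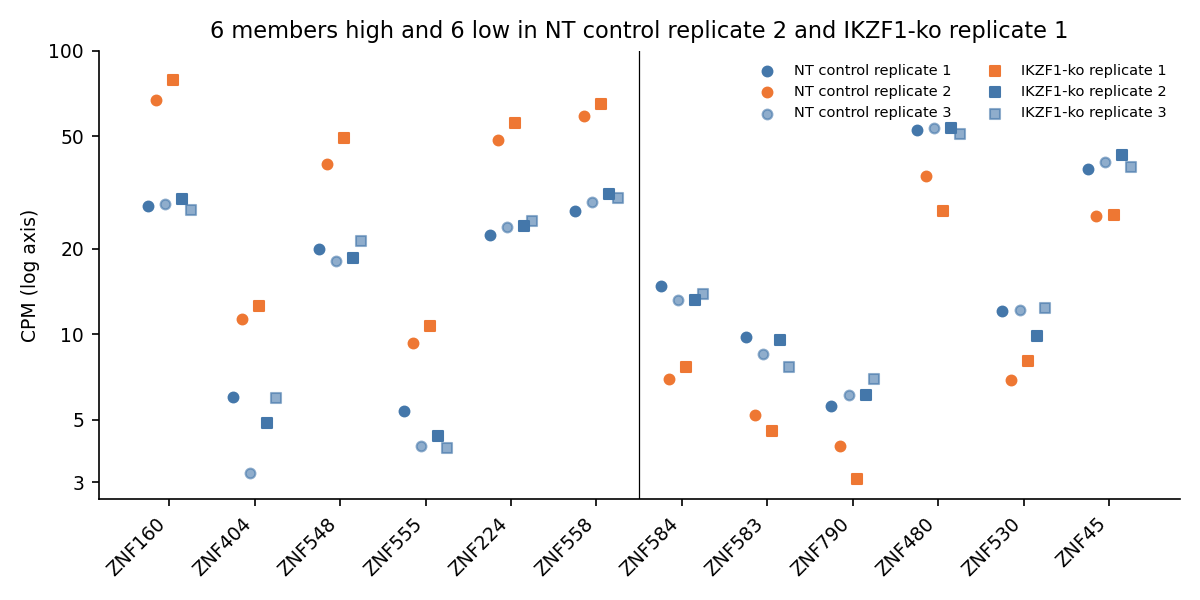
CPM (log axis) in each of the 6 libraries for the 6 members named as high and the 6 named as low in the pair that stood apart. That pair, NT control replicate 2 and IKZF1-ko replicate 1 (orange), lies above the other 4 for every member left of the line and below them for every member right of it, in both groups.

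The differences varied by position along the chromosome. Members fell into 20 clusters, with a new one begun at a gap of over 500000 bases, and 10 clusters held 5 or more members and 232 in all. In the cluster from ZNF554 to ZNF77, at chr19:2819874-2944971, all 5 members were high, with a median log2 difference of 0.65. Within it ZNF57 stood at 3.39, 8.46 and 2.54 CPM in NT control and 6.62, 4.48 and 4.02 CPM in IKZF1-ko. Its mean was under 5 CPM, so it lies outside the rule for named genes. In the cluster from ZNF653 to ZNF791, 11 of 19 tested members were high and 1 low, with a median of 0.39. The cluster from ZNF264 to ZNF446, at chr19:57191500-58481230, had 8 of 36 tested members high and 10 low, with a median of 0.13, and holds ZNF548 and ZNF584 at opposite ends of the range. Clusters were not tested against each other, and members of one cluster share sequence.

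**Figure D5:**
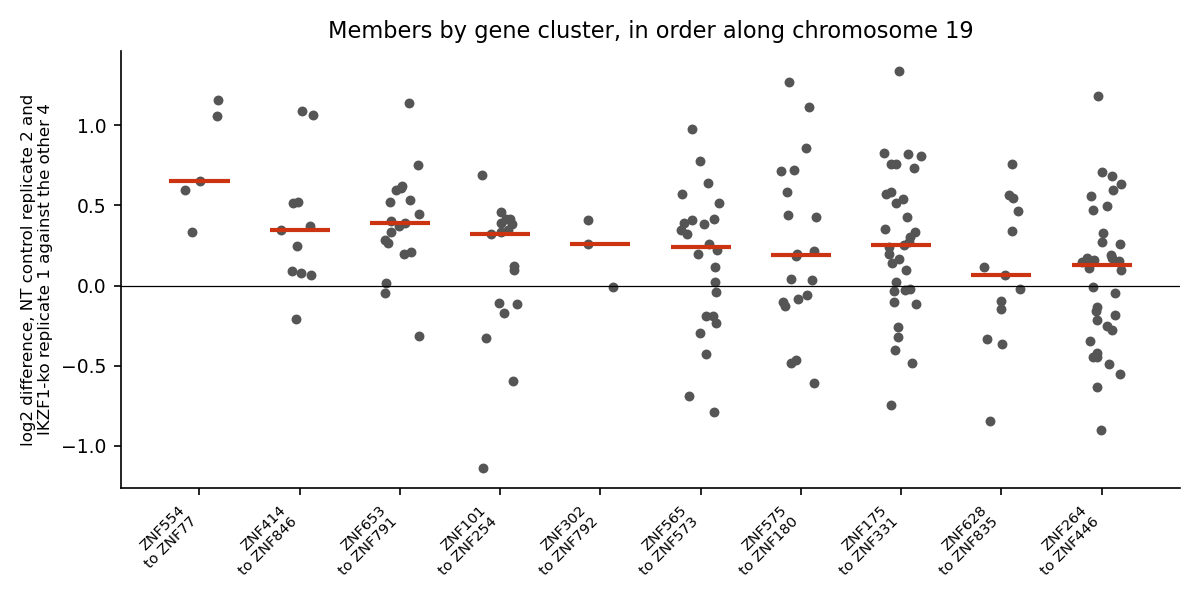
Log2 difference between NT control replicate 2 and IKZF1-ko replicate 1 and the other 4 libraries for tested members, by cluster in order along chromosome 19, for clusters of 5 or more members. All 5 members of the first cluster lie above 0, whereas those of the last, from ZNF264 to ZNF446, lie on both sides with a median of 0.13.

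Protein features were counted on both sides of the split. Of 157 tested members in which a KRAB A box was found, 70 (44.6%) were high and 30 low. Of 35 in which the search found none, some of which may have one, 14 (40.0%) were high and 4 low. Of 142 tested members with 10 or more fingers, 62 were high, and of 50 with fewer, 22 (44.0%) were high.

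The proteins with which KRAB domains work were listed separately. Of that list of corepressor and heterochromatin genes, 23 of 24 genes passed the filter, and edgeR on group alone called 0 of them. With the library-set term 2 of the 23 rose and 4 fell, against 6.93% and 6.62% of all genes, and the median log2 fold change was -0.02. TRIM28 stood at 692, 529 and 668 CPM in NT control and 458, 637 and 616 CPM in IKZF1-ko replicates 1, 2 and 3. It fell by 0.15 on the log2 scale (SE 0.044, edgeR adjusted p = 0.0343), and it was low in both libraries that stood apart. SETDB1 stood at 91.7, 117 and 96.6 against 123, 97.7 and 96.9 CPM, was high in the same 2 libraries and did not pass the test between the groups (edgeR adjusted p = 0.504). The others that fell were CBX3, an HP1 protein, by 0.18, and UHRF1 and SUV39H1, a partner of DNMT1 and an H3K9 methyltransferase, by 0.20 and 0.29. CBX5, another HP1 protein, and the deacetylase gene HDAC2 rose by 0.24 and 0.15. Across the split, 4 of the 23 were high and 8 low, against 32.5% and 31.5% of all genes, with a median log2 difference of -0.06 against 0.22 in the zinc finger genes, and the part of these genes in the members' values was not tested.

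Promoters of 215 of the 246 members were found in the RefSeq table for GRCh38.p14, from 250 bases before to 50 after the most upstream start. CCGGAAGT occurred on either strand in 45 of them (20.9%), against 6.26% of 15309 protein-coding promoters, 9.58% of those whose genes passed the filter, 4.55% of other chromosome 19 genes and 14.3% of ZNF genes elsewhere. It was found in 12 of 74 promoters of high members (16.2%) and 11 of 30 of low members (36.7%). TGGGAA, the Ikaros core, occurred in 87 (40.5%), against 22.7% of protein-coding promoters, 24.9% of those of other chromosome 19 genes and 33.8% of those of ZNF genes elsewhere. Its share was 40.5% in high members, 53.3% in low members and 44.4% in members with 0 counts. ACGTG, the hypoxia core, was found in 38 (17.7%) against 23.7%, with 18.9% in high and 23.3% in low members. A match describes letters in a window and not binding, many members arose by duplication and share sequence, and no test was made. The median number of CpG dinucleotides was 20 in the members' promoters, 15 in those of 27 members with 0 counts and 22 in all protein-coding promoters.

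Overlaps and copies touch many of these genes. Of the 193 tested, 109 share exon positions with another annotated gene, 62 on the same strand and 65 on the opposite strand. In 14 of the 193, at least 20% of the 50-base pieces occur in another of the genes compared. Of the members named, ZNF585A, ZNF576, ZNF404, ZNF296, ZNF649, ZNF808, ZNF525, ZNF581, ZNF583, ZNF547, ZNF548, ZNF419, ZNF773, ZNF587, ZNF417, ZNF324 and ZNF446 overlap another gene on the same strand, and their values are uncertain. ZNF555, ZNF57, ZNF558, ZNF93, ZNF100, ZNF146, ZNF382, ZNF790, ZNF224, ZNF225, ZNF235, ZNF114, ZNF473 and ZNF480 overlap one on the opposite strand only. The libraries were made with a stranded kit, but the strand setting of the counting is not given in the sources used here.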

How the data were processed

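Polyadenylated RNA was sequenced from 6 libraries, 3 per group, made with a stranded kit per the labels' protocols. The authors deposited read counts per gene, as whole numbers with no scaling, and they were used as deposited. The submitters' processing notes list Trimmomatic, STAR and the build GRCh38. Which read counter and which annotation they used is not given in the sources used here. The table had 0 columns of other samples. Each column was matched to a sample by its library name, and positions and exon lengths came from GENCODE release 29, which holds 57895 of the identifiers.

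Total counts of 11300519 to 18214328 per library set the precision. Genes were filtered with filterByExpr, scaled with TMM and tested with edgeR 4.0.16 (R 4.3.3), by its two-sided quasi-likelihood F test, adjusted by Benjamini-Hochberg over 13028 genes at 0.05. Levels on the log2 scale used a prior count of 2. The library-set term was checked against the sign of the first principal component. Alternatives were other scalings and filters, DESeq2 1.42.0, limma-voom 3.58.1, a surrogate variable from sva 3.50.0, a replicate block, the 4 libraries alone and each library left out. KRAB boxes and fingers were counted in translated GENCODE coding sequences, where RefSeq proteins had been planned, and 4 motifs were searched in promoters, of which 1 is not reported here.

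Members named were the 6 of highest TPM, and, at a mean of at least 5 CPM, the 6 highest and 6 lowest fold changes with the term and the 6 most different members each way across the split, plus 12 with known targets or roles. The members, lists and tests were chosen with earlier results of these data known. The tests were checked on simulated counts. Replicates of a group differed by more than sampling noise, with a chi-square per degree of freedom of 2.25 or more in every pair. Figures were drawn with matplotlib 3.10.9.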

Additional observations from a re-analysis of the deposited data

How the results depend on the processing

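On group alone edgeR called 0 genes, but 8 with no filter on low counts (0 of them members), DESeq2 called 71, limma-voom 1, edgeR with 1 surrogate variable 1047, with 4 libraries only 1908 and with the library-set term 1765. Members called went from 0 on group alone to 1 with the surrogate variable, 8 in 4 libraries and 5 with the term, and stayed at 0 when each library was left out, under the other scalings and filters and by DESeq2 and limma-voom. With the term, the 5 members called became 1 with a surrogate variable in its place, 8 in 4 libraries only, and 0 to 8 when each library was left out in turn, and stayed at 5 or 6 under the other scalings, filters and limma-voom. The cause of these changes was not tested, and the part of the smaller number of libraries in some of these fits was not tested either. The median log2 fold change of the members with the term was 0.0584 in 4 libraries only and 0.0583 to 0.107 with a library left out. The count of members high in both libraries that stood apart ranged from 79 to 96 and that of low members from 27 to 38. This covers the scalings, the filters and each of the other 4 libraries left out. Without NT control replicate 2, 117 were high and 40 low, and without IKZF1-ko replicate 1, 90 and 45. In those settings only the 1 remaining library that stood apart was compared with the rest. With a replicate block, 0 members were called on group alone, and beside the term 15 (7.77%) were, all rising, in a fit that called 22.6% of all genes, 11.2% rising. Deviations of same-numbered libraries correlated at -0.66, -0.69 and 0.59, and not every library correlated best with its own number. The split enters these deviations under different numbers in each group, with 0.82 between NT control replicate 2 and IKZF1-ko replicate 1. Whether the numbers pair the samples therefore cannot be read from them. None of the named members changed sign in a setting in which it was called. The members' median level was 10.8 CPM, and the part of depth in their calls was not tested.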
